A study of Rattus norvegicus with 24 samples.

Results

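The genes described here are 9 genes of the schizophrenia risk literature, namely Nrg1, Erbb4, Akt1, Disc1, Dtnbp1, Cacna1c, Grm3, Rgs4 and Tcf4. They were chosen by symbol from the 17420 genes of the deposited expression table, and all 9 were found there. RNA was measured by sequencing of the developing hippocampus and neocortex of 24 Sprague-Dawley rat pups on embryonic day 18. There were 4 groups of 6 pups, drawn as 3 pups from each of the 2 litters of a group. The study asked whether different prenatal insults used to model schizophrenia change the fetal transcriptome.

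Saline dams were injected with vehicle on gestational day 17 and are the controls. MAM dams received methylazoxymethanol acetate, which methylates DNA, at 22 mg/kg on gestational day 17. Poly I:C dams received polyinosine:cytosine, a double-stranded RNA mimic that activates the maternal immune response, at 7.5 mg/kg on the same day. Tissue was taken 18 hours after these injections. Low Protein dams ate a diet with 6.1% protein from gestational day 11 to 18, against 20.3% in the control diet. The sources used here do not say which diet was eaten by dams given MAM or Poly I:C, nor whether Low Protein dams had an injection. Because the dam was treated, the pups of a litter share their exposure, and the p-values below measure the spread between pups.

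Neuregulins are growth factors with an EGF-like domain that bind ErbB receptor tyrosine kinases. In the forebrain, Nrg1 is a ligand of Erbb4, which is found above all on interneurons that migrate from the ganglionic eminences into the cortex. The activated receptor signals through PI3-kinase and Akt and through the Ras-MAP kinase cascade. The other genes act at the synapse, in vesicle traffic, in calcium entry and in transcription, and all 9 have been studied as schizophrenia risk genes.

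All 9 genes were above the deposited offset in at least 18 of the 24 pups and entered the test with 13368 genes in total. The deposited values are TPM, which are scaled for gene length and set to the same total in every pup, and they fall with the genomic span of a gene. They therefore rank pups within a gene and do not rank genes by transcript abundance. Only Akt1 and Rgs4, the genes with the shortest spans of the 9 (20.3 and 6.29 kb in the GRCr8 assembly), had a mean above 1 in every group. Depth, estimated from the steps between low values, was 25.0 to 64.9 M reads (megareads) per pup. At that depth Disc1 rested on an estimated 12.7 to 65.0 reads per pup, and Akt1 on 4718 to 14456. Markers of cortical projection neurons, such as Neurod6 and Tbr1, were present in every pup, with a summed level of 126 to 280.3. Markers of other tissue were present too, with sums of 3.55 to 11.1 for striatal projection neurons, 32.4 to 243 for choroid plexus and 466 to 1154 for blood. In bulk tissue, fewer cells of a type and less RNA per cell cannot be told apart.

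None of the 9 genes passed the test in limma in any comparison. The count was 0 of 9 at an adjusted p under 0.05 and 0 of 9 at an unadjusted p under 0.05, in each treatment against Saline, in each treatment against another and in the F test over the 4 groups. Over all genes tested, an unadjusted p under 0.05 was reached by 7.11% for Low Protein, 9.61% for MAM and 9.15% for Poly I:C, each against Saline. An adjusted p under 0.05 was reached by 0%, 0.0150% and 0% of genes in these comparisons. Between treatments, the unadjusted share over all genes was 8.57% for Low Protein against MAM, 4.89% for Low Protein against Poly I:C and 17.9% for MAM against Poly I:C, and the adjusted share was 0.0374%, 0.0150% and 1.08%. The F test passed at an unadjusted p for 12.7% of all genes and at an adjusted p for 0.157%. The lowest adjusted p of the 9 genes against Saline was 0.58, for Rgs4 in MAM. By exact permutation, with no adjustment, 1 of 9 genes was under 0.05 for Low Protein (Erbb4), 1 for MAM (Rgs4) and 0 for Poly I:C. Over all genes tested, that test was under 0.05 for 9.17%, 13.1% and 7.72%, in the same order, so a count of 1 of 9 is near the background.

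In no comparison with Saline did the 6 treated pups lie wholly outside the 6 Saline pups for any of the 9 genes. Over all genes, the groups did not overlap for 0.673% (Low Protein), 0.875% (MAM) and 0.434% (Poly I:C). In Low Protein, 5 of the 9 genes had a lower mean log2 value than Saline, with a median log2 difference of -0.10 beside -0.02 over all genes tested. In MAM 5 were lower, with a median of -0.06 beside -0.07, and in Poly I:C 6 were lower, with a median of -0.06 beside 0.0027. These 3 comparisons share the Saline pups, so their values are not independent of each other.

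**Figure D1:**
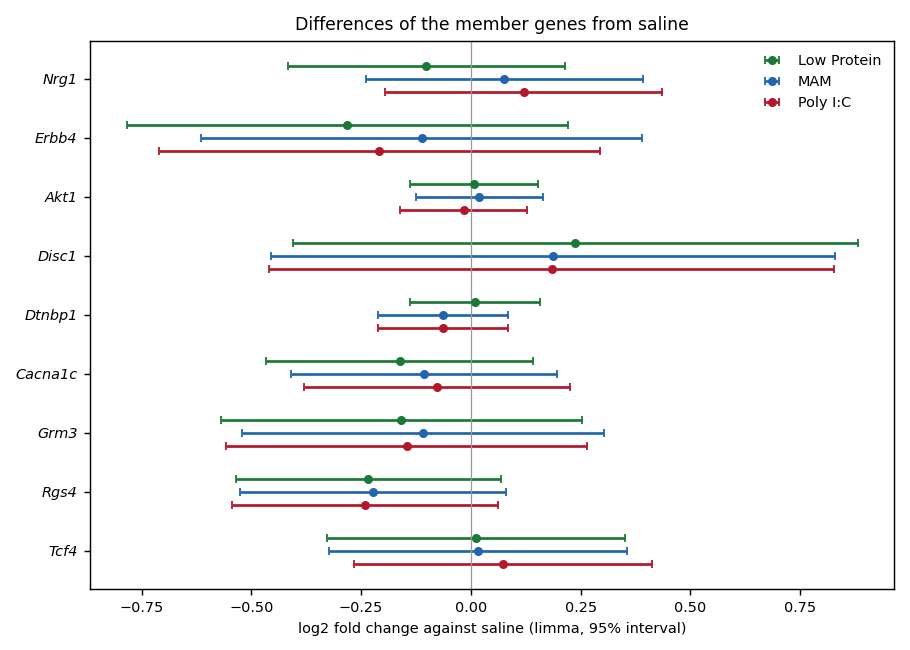
Log2 fold change of each of the 9 genes against Saline (x axis) for the treatments, one colour each, with 95% intervals from limma over 24 pups. Every interval includes 0, and the narrowest are those of Akt1 and Dtnbp1.

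Nrg1, the ligand, was listed at 0.00877 ± 0.000866 (SD, n = 6) in Saline. It was 0.00823 ± 0.00123 for Low Protein, 0.00924 ± 0.000752 for MAM and 0.00965 ± 0.00190 for Poly I:C. The Saline pups ran from 0.00793 to 0.00996 with a median of 0.00842, and some pups of every treatment lay inside that range. The log2 difference from Saline was -0.10 (95% interval -0.42 to 0.21) in Low Protein, 0.08 (-0.24 to 0.39) in MAM and 0.12 (-0.20 to 0.44) in Poly I:C. In MAM 5 of 6 pups were above the Saline mean, but only 1 was above every Saline pup. The largest pairwise difference of Nrg1, Low Protein below Poly I:C by -0.22 on the log2 scale, had an adjusted p of 0.98 in limma.

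Erbb4, the receptor, had the lowest exact p of the 9 genes. In Saline its values ran from 0.0109 through a median of 0.0125 to 0.0143. In Low Protein they ran from 0.00798 through 0.0108 to 0.0125. All 6 Low Protein pups were below the Saline mean and 4 of them were below every Saline pup. The exact two-sided permutation test gave p = 0.0216 for this difference, where the smallest p that 6 against 6 pups allow is 0.00216. The log2 fold change was -0.28 (SE 0.24, 95% interval -0.78 to 0.22). The error in limma draws on all 4 groups, and the adjusted p was 0.85. The exact test was 1 of 54 run on single genes and groups, and it was not adjusted for their number.

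Both Low Protein litters were below the Saline mean for Erbb4, litter 1 by -0.41 and litter 2 by -0.15 on the log2 scale. The 8 measured markers of interneurons and ganglionic eminence, such as Dlx1, Gad1 and Lhx6, had a mean score of -0.43 in Low Protein against 0 in Saline. The score ran from -0.87 to -0.09 in Low Protein and from -0.43 to 0.66 in Saline, and their summed level from 43.7 to 63.8 and from 51.3 to 105. None of the 8 markers was at the offset in all pups. The marker scores of oligodendrocyte precursors and astrocytes were lower in Low Protein too, at -0.35 (-0.64 to -0.09) and -0.25 (-0.37 to -0.03), with all 6 pups below the Saline mean for each. Without Saline pup 2.1, left out after its values were seen, the Low Protein score stood -0.29 from Saline for the ganglionic eminence markers, -0.25 for oligodendrocyte precursors and -0.23 for astrocytes. With the ganglionic eminence score as a covariate the Erbb4 difference in Low Protein was -0.20, with an adjusted p of 1.0 in limma. Over Low Protein pups 1.1, 1.2, 1.3, 2.1, 2.2 and 2.3 the ganglionic eminence score was -0.87, -0.09, -0.45, -0.36, -0.48 and -0.31. Erbb4 minus its Saline mean was -0.47, -0.65, -0.11, -0.21, -0.0044 and -0.24 in the same order, on the log2 scale. Saline pup 2.1 had the highest score, 0.66, and the lowest Erbb4 of the Saline pups, -0.20. The part of these cells in the Erbb4 values was not tested further.

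In MAM, Erbb4 ran from 0.0102 to 0.0151 with a median of 0.0110, and 4 of 6 pups were below the Saline mean. In Poly I:C it ran from 0.00518 to 0.0221 with a median of 0.0119, which is the widest range of any group. Here 3 pups were below every Saline pup, 1 was above every Saline pup and 2 lay among them. The log2 differences of the group means were -0.11 and -0.21, with adjusted p of 0.88 for MAM and 0.85 for Poly I:C in limma. Without Poly I:C pup 1.3 the latter difference was 0.0052.

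Akt1, the serine-threonine kinase downstream of PI3-kinase, was nearly level across the groups. Its mean was 8.22 ± 0.658 for Saline, 8.26 ± 0.654 for Low Protein, 8.32 ± 0.445 for MAM and 8.14 ± 0.877 for Poly I:C (SD, n = 6 each). The widest 95% bounds of its log2 difference from Saline were -0.16, in Poly I:C, and 0.16, in MAM. Of the 9 genes, Akt1 and Dtnbp1 thus had the most narrowly bounded differences. The Poly I:C pup 1.3, at 6.46, was the lowest of the 24 pups.

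**Figure D2:**
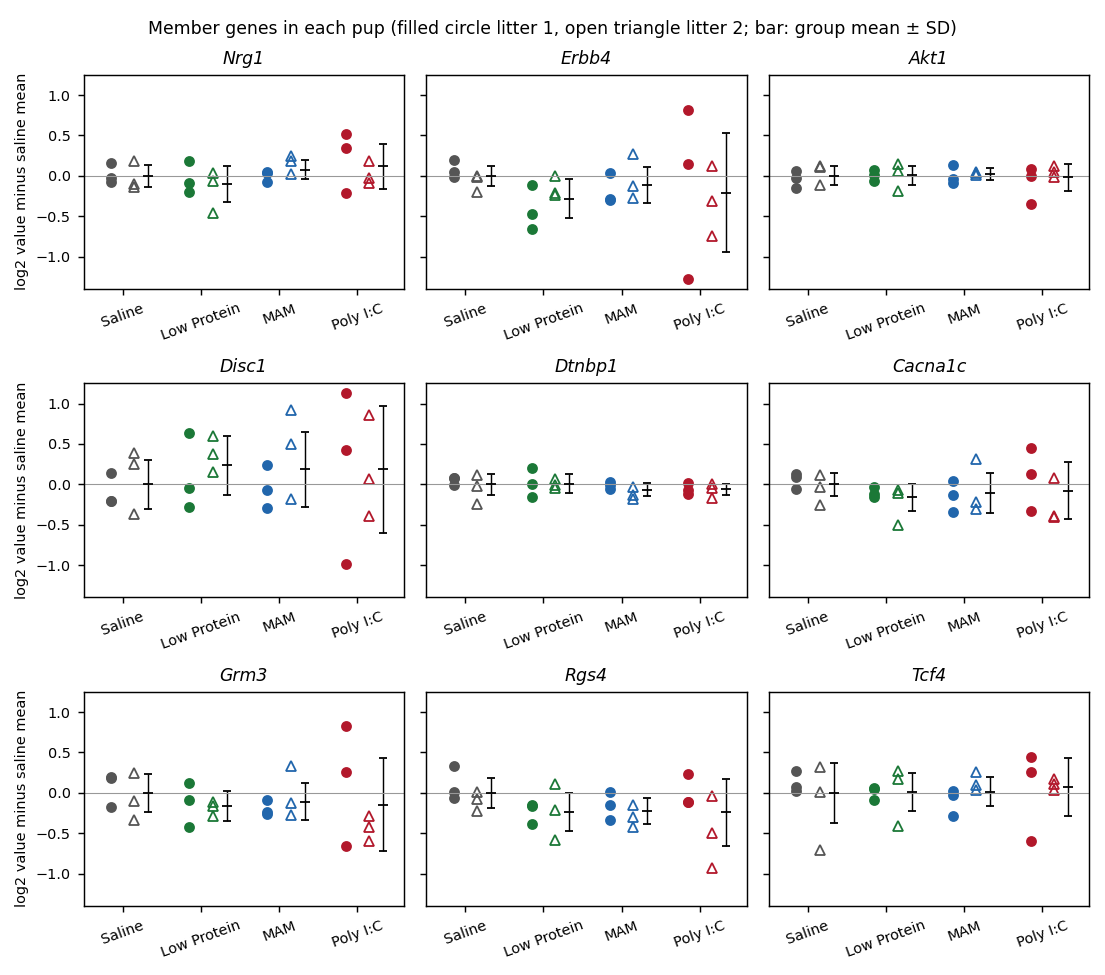
Log2 value minus the Saline mean (y axis) of each of the 9 genes in each of the 24 pups, by group (x axis); filled circles are litter 1, open triangles litter 2, and bars the group mean ± SD. Erbb4 and Disc1 spread most widely in Poly I:C, and the groups overlap in every panel.

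Disc1 encodes a scaffold protein that binds centrosomal and synaptic partners. It ran from 0.00274 through a median of 0.00349 to 0.00462 in Saline and from 0.00292 through 0.00426 to 0.00552 in Low Protein. In MAM it ran from 0.00289 to 0.00670 and in Poly I:C from 0.00178 to 0.00777. Its means were above Saline in all 3 treatments, by 0.24, 0.19 and 0.18 on the log2 scale. The SE of each was 0.31 and the adjusted p in limma was 0.92 for Low Protein, 0.84 for MAM and 0.91 for Poly I:C. Disc1 had the fewest reads of the 9 genes, and the counting error estimated from them, was an SD of 0.22 to 0.27 on the log2 scale in the groups. The observed SD was 0.30 for Saline, 0.37 for Low Protein, 0.46 for MAM and 0.79 for Poly I:C. The 3 differences were smaller than these spreads between pups.

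Dtnbp1 encodes dysbindin, a subunit of the BLOC-1 complex of vesicle traffic. Its mean was 0.180 ± 0.0155 in Saline and 0.181 ± 0.0148 in Low Protein. In MAM and Poly I:C it was 0.172 ± 0.00951 and 0.172 ± 0.00853 (SD, n = 6 each). In MAM 5 of 6 pups were below the Saline mean and no pup was below every Saline pup. The log2 differences were 0.0094, -0.06 and -0.06, and no interval reached beyond -0.21 or 0.16.

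Cacna1c encodes the pore-forming subunit of the Cav1.2 L-type calcium channel. In Saline it ran from 0.0429 through 0.0523 to 0.0558, and in Low Protein from 0.0361 through 0.0473 to 0.0501. All 6 Low Protein pups were below the Saline mean, but only 1 was below every Saline pup, and the exact permutation p was 0.0909. The log2 difference was -0.16 (95% interval -0.47 to 0.14) for Low Protein, -0.11 for MAM and -0.08 for Poly I:C.

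Grm3 encodes a group II metabotropic glutamate receptor that lowers cAMP. It ran from 0.0371 through 0.0482 to 0.0553 in Saline, and 5 of 6 pups in Low Protein and 5 of 6 in MAM were below the Saline mean. The Poly I:C pups ran from 0.0296 to 0.0828 with a median of 0.0366. The 2 Poly I:C litters lay on opposite sides of the Saline mean, at 0.14 and -0.43 on the log2 scale. The group differences were -0.16 for Low Protein, -0.11 for MAM and -0.15 for Poly I:C, each with an SE of 0.20.

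Rgs4 speeds the return of Gi- and Gq-type G proteins to their inactive state and so shortens receptor signals. In Saline it ran from 5.61 through 6.42 to 8.28, in Low Protein from 4.35 through 5.75 to 7.06 and in MAM from 4.89 through 5.62 to 6.62. The Poly I:C pups ran from 3.43 through 6.07 to 7.69. In each treatment 5 of 6 pups were below the Saline mean, and 2, 3 and 2 pups respectively were below every Saline pup. The log2 fold change was -0.23 for Low Protein, -0.22 for MAM and -0.24 for Poly I:C, with an SE of 0.15.

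In limma these differences of Rgs4 had adjusted p of 0.77, 0.58 and 0.65. The exact permutation p was 0.104 for Low Protein, 0.0455 for MAM and 0.221 for Poly I:C. Both litters of Low Protein lay at -0.23, and those of MAM at -0.16 and -0.29. Of the Poly I:C litters, litter 1 lay at 0.0046 and litter 2 at -0.49. With the ganglionic eminence score as a covariate, the Rgs4 differences were -0.08 for Low Protein, -0.12 for MAM and -0.18 for Poly I:C. The mean score was -0.30 for MAM and -0.18 for Poly I:C, and relative to Saline without its pup 2.1 it was -0.16 and -0.05. Its part in the Rgs4 values was not tested further.

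Tcf4 encodes a basic helix-loop-helix E protein that binds E-box sequences. Its mean was 0.353 ± 0.0772 for Saline, 0.351 ± 0.0544 for Low Protein, 0.350 ± 0.0420 for MAM and 0.371 ± 0.0799 for Poly I:C (SD, n = 6 each). The Saline pup 2.1, at 0.212, lay far below the other Saline pups, which ran from 0.347 to 0.429. That pup also had the highest ganglionic eminence score of all, 0.66, a striatal projection neuron score of 0.95 and a cortical projection neuron score of -0.48. Without Saline pup 2.1 the Tcf4 difference changed sign, to -0.13 in Low Protein and -0.12 in MAM, from 0.01 and 0.02 with all pups.

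When treatments were compared with each other, the lowest exact permutation p of any of the 9 genes was 0.123. Adjusted p in limma ran from 0.80 to 0.996 for Low Protein against MAM, from 0.98 to 0.998 for Low Protein against Poly I:C and from 0.85 to 0.997 for MAM against Poly I:C.

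The spread among pups was larger in Poly I:C than in Saline for 7 of the 9 genes. It was larger for most genes tested too, with a median ratio of the 2 SDs of 1.18. The SD of log2 Erbb4 over 6 pups was 0.74 in Poly I:C and 0.13 in Saline, a ratio of 5.87. Of all genes tested, whatever their span, 0.613% had a ratio at least as large, but Erbb4 was picked as the largest of the 9. The ratio was 2.64 for Disc1, 2.41 for Grm3, 2.39 for Cacna1c, 2.21 for Rgs4 and 2.00 for Nrg1, which 9.94% to 19.6% of all genes matched or exceeded. It was 1.44 for Akt1, 0.963 for Tcf4 and 0.553 for Dtnbp1. These ratios are descriptions, with no test.

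The spread of Erbb4 in Poly I:C was wide within both litters, whose means stood at -0.11 and -0.31 from Saline on the log2 scale. In litter 1 the pups stood at 0.0221, 0.0139 and 0.00518, and in litter 2 at 0.0136, 0.00751 and 0.0102. Pup 1.1 was also the highest of its group for Disc1, Grm3, Cacna1c, Nrg1 and Tcf4, and pup 1.3 the lowest for Erbb4, Disc1, Grm3, Nrg1, Tcf4 and Akt1. Pup 1.3 had the largest departure from its group mean over all genes, a root mean square of 0.44 on the log2 scale beside 0.22 to 0.35 in the other 23 pups. Its choroid plexus score was -1.88.

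**Figure D3:**
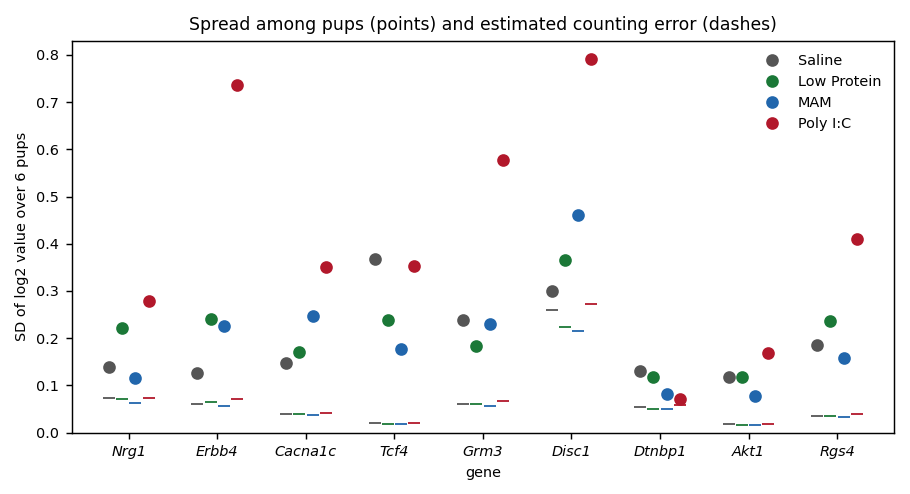
SD of the log2 value over the 6 pups of a group (y axis) for each of the 9 genes; points are the observed SD by group and dashes the counting error estimated from reads. Erbb4 stands at 0.74 in Poly I:C and 0.13 in Saline, whereas Dtnbp1 is below 0.14 in every group.

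The members with spans over 200 kb, namely Nrg1, Erbb4, Disc1, Cacna1c, Grm3 and Tcf4, varied together among pups. After the group mean was taken away, Pearson's r over the 24 pups was 0.45 to 0.80 for their 15 pairs, with Spearman's rho of 0.40 to 0.86. Of the 36 pairs of all 9 genes, 17 had a Benjamini-Hochberg adjusted permutation p of r under 0.05, and 14 of these were among the long genes. The others were pairs of Akt1, whose span is longer than that of 46.0% of genes tested. They were with Rgs4, given below, and with the long genes Disc1 and Tcf4. Akt1 had r = 0.55 with Disc1 and 0.48 with Tcf4 (adjusted permutation p = 0.0141 and 0.0380, of rho 0.129 and 0.261). These r were 0.60 and 0.50 given the length trend described below. Without the 2 pups farthest from the median of Akt1 they were 0.36 and 0.08. The p-values here treat pups of a litter as independent. This grouping by span was made after the values were seen. The share of such pairs over all genes tested, or over genes of like span, was not computed. The counts of 17 and 14 pairs thus have no background beside them.

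The receptor Erbb4 and the glutamate receptor gene Grm3 had the highest r, 0.80 (permutation p = 2e-05, rho = 0.75, permutation p of rho = 6e-05). It was 0.61 without Poly I:C pups 1.1 and 1.3, the 2 farthest from the median of Erbb4. The ligand and its receptor, Nrg1 and Erbb4, had r = 0.73 (permutation p = 5e-05, rho = 0.67, permutation p of rho = 0.00046). It was 0.55 without those Poly I:C pups, 0.74 without Low Protein pup 2.3 and Poly I:C pup 1.1, the 2 farthest from the median of Nrg1, and 0.45 over the 18 pups without Poly I:C. Given the length trend described next, it was 0.40. For Erbb4 and Disc1 r was 0.69 (permutation p = 0.00028, rho = 0.47, permutation p of rho = 0.0206) and fell to 0.37 without those Poly I:C pups, on which that relation largely rested.

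With litter means also removed, r of the 15 long pairs was 0.47 to 0.85. Over the 18 pups without Poly I:C it was 0.10 to 0.74, with a median of 0.41 beside 0.69 in all pups. These genes also followed a feature of the whole library. In each pup the median log2 value of the 20% of genes with the longest spans, 70.3 kb or more, was set against that of the 20% with the shortest, 7.6 kb or less. This difference ran from -0.16 to 0.28 over the pups and was highest in Poly I:C pup 1.1. As a description, its r with Cacna1c was 0.93, with Grm3 0.83, with Nrg1 and Erbb4 0.74, with Disc1 0.65 and with Tcf4 0.62. It was 0.27 with Rgs4, 0.15 with Akt1 and -0.12 with Dtnbp1. The span of Dtnbp1, 91.5 kb, is also in the longest 20%, so not every long member followed this difference. Given this difference, the partial r of the 15 pairs was -0.10 to 0.60, with a median of 0.21. The cause of the length trend was not tested.

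**Figure D4:**
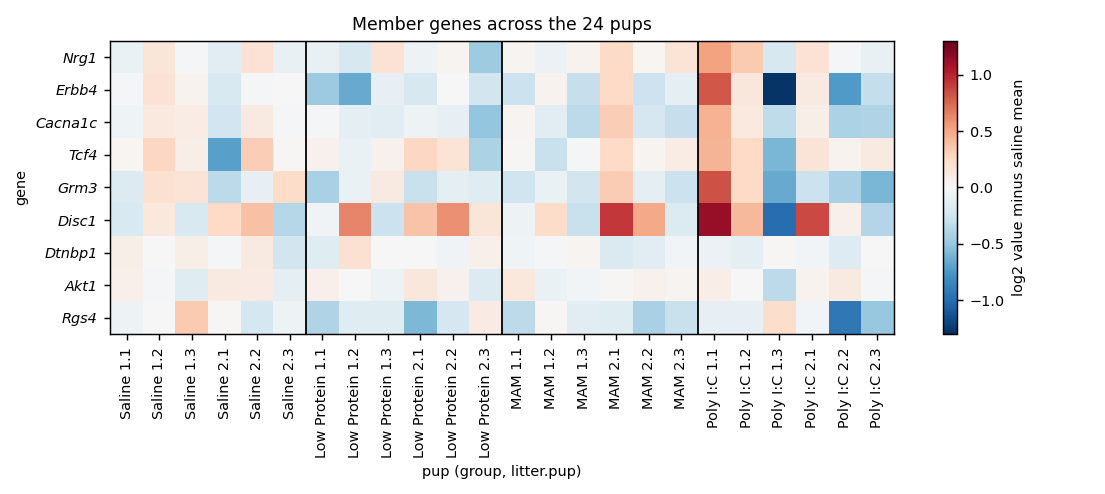
Log2 value minus the Saline mean (colour) for the 9 genes (rows) in the 24 pups (columns), by group. The long genes in the upper rows share the same pups: they are high in Poly I:C pup 1.1 and low in Poly I:C pup 1.3.

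Akt1 and Rgs4, the members with the shortest spans, varied in opposite directions, with r = -0.72 (permutation p = 0.00016, rho = -0.63, permutation p of rho = 0.00128). It was -0.59 without the 2 pups farthest from the median of Akt1, -0.67 with litter means removed and -0.81 without Poly I:C. Dtnbp1 followed none of the others, with r from -0.23 to 0.34 over its 8 pairs.

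Among all genes tested, those whose values followed Erbb4 most closely over the 24 pups, with group means removed, were Cacna1e (r = 0.97), Rfx3 (0.95) and Syn3 (0.94). For Nrg1 they were Otud4 (0.91), Runx1t1 (0.90) and Mxd1 (0.88). For Akt1 they were Vars (0.93), Ddx54 (0.92) and Pik3r2 (0.92), and for Rgs4 they were Gabrg1 (0.95), Shroom2 (0.94) and Brinp3 (0.93). For Tcf4 they were Stx6 (0.96), Nfia (0.95) and Nfib (0.95), and for Disc1 Eef2k (0.94), Utrn (0.92) and H6pd (0.91). For Cacna1c they were Sptan1 (0.94), Ppp1r12b (0.94) and Sec16a (0.94), and for Grm3 Hecw1 (0.91), Csrnp3 (0.90) and Bmpr2 (0.90). Dtnbp1 had no such close match, its nearest being Nox3 (0.70), Nt5c1a (0.67) and Snurf (0.65). These are the highest values out of 13368 genes and are given as a description.

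Tcf4 binds the E-box, CANNTG, so the promoters of the members were read for that motif. RefSeq promoter sequences (GRCr8, 250 bases before to 50 after the gene start) were at hand for 7 of the 9 members, all but Nrg1 and Grm3. Nrg1, the member with the highest r with Tcf4 (0.77, rho = 0.86), could thus not be read. The promoters of Erbb4 and Cacna1c are shown because these genes varied together and with Tcf4, and that of Disc1 because it holds the most E-boxes of the 7. The r of Disc1 with Tcf4 was 0.45 (rho = 0.43) and missed the threshold, with adjusted permutation p of 0.0553 and 0.0923. E-boxes are in capitals.
Erbb4 (chr9:78045557-78045856, minus strand): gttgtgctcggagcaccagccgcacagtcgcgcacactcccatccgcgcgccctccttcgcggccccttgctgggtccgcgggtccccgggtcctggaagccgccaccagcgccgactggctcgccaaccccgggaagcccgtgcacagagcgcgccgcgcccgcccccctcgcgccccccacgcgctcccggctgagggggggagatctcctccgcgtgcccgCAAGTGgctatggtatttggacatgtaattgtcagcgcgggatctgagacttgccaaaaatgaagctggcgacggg
Disc1 (chr19:69911726-69912025, plus strand): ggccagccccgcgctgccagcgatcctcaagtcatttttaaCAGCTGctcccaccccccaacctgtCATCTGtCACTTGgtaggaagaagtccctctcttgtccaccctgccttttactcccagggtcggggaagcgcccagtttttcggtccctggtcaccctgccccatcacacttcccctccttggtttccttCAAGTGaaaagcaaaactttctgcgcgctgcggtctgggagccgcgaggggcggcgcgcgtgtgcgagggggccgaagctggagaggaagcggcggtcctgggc
Cacna1c (chr4:154051699-154051998, minus strand): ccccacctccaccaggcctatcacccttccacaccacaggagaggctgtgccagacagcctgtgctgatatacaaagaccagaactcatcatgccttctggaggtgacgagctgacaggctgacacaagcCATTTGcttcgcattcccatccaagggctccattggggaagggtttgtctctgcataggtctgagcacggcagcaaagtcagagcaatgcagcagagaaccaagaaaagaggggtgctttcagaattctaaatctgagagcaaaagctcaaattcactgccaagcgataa

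The motif reads the same on both strands, and no other motif was searched. It occurs 4 times in the Disc1 window and once each in those of Erbb4 and Cacna1c. Of the 7 member promoters 5 hold it (71.4%), beside 72.1% of all 33469 rat promoters of this length. The promoters of Dtnbp1 and of Tcf4 itself do not hold it. At least 3 copies are held by 14.3% of the member promoters, beside 16.6% of all. The share among the members is thus near that of all promoters, and a match is a string of letters and not a shown binding site.

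The pathway around these genes was described by 12 lists with 134 genes, of which 122 were in the table and 117 were tested, the 9 genes among them. None of the 117 had an adjusted p under 0.05 in limma against Saline. At an unadjusted p under 0.05, 1 was higher and 11 lower in Low Protein, 1 higher and 15 lower in MAM, and 1 higher and 8 lower in Poly I:C. The direction in MAM depended on the scaling: 5 were higher and 3 lower with median-of-ratios scaling, 5 and 2 with the gene length correction, and 2 and 4 with upper-quartile scaling. Over all genes tested, 2.63% were higher and 4.47% lower by the same rule for Low Protein, 2.15% and 7.47% for MAM, and 3.85% and 5.30% for Poly I:C. With median-of-ratios scaling the shares for MAM were 5.12% and 2.74%. In Low Protein the lower count was 1 with the ganglionic eminence score as a covariate, beside 1.1% of all genes. It was 2 without Saline litter 2, beside 2.09%, and 18 with only Low Protein and Saline in the fit, beside 6.48%. In Poly I:C 2 were lower without Poly I:C litter 2, beside 2.51%, and 30 without Poly I:C litter 1, beside 12.1%. The median log2 fold change of the listed genes was -0.09 beside -0.02 for all genes in Low Protein, -0.12 beside -0.07 in MAM and -0.05 beside 0.0027 in Poly I:C. With the gene length correction the medians in MAM were -0.03 and -0.008. The counts of genes below or above 0 by list, given below, have no count over all genes beside them. As the medians show, most genes tested were themselves below 0 in Low Protein and MAM.

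**Figure D5:**
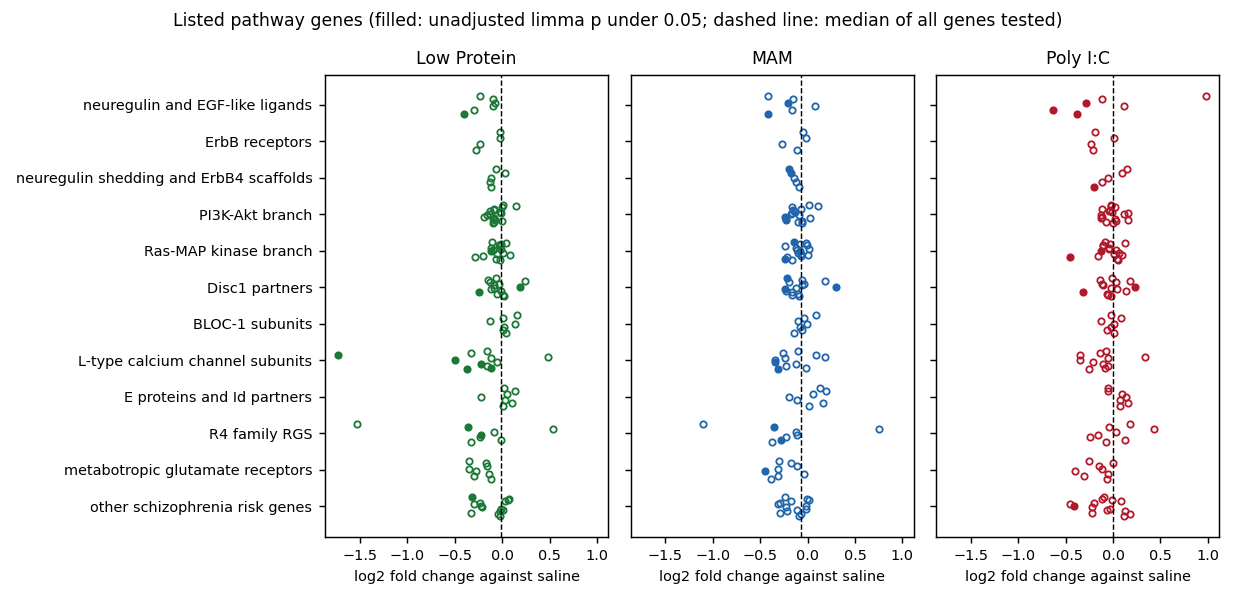
Log2 fold change against Saline (x axis) of 117 listed genes in 12 lists (rows), for Low Protein, MAM and Poly I:C; filled points have an unadjusted limma p under 0.05 and the dashed line is the median of all genes tested. All 8 metabotropic glutamate receptors lie below 0 in Low Protein and MAM, where the median of all genes tested is also below 0 (-0.02 and -0.07).

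Among the ligands, Nrg2 ran from 0.00544 to 0.0140 in Saline and from 0.00423 to 0.00803 in Poly I:C. All 6 Poly I:C pups were below the Saline mean and 3 were below every Saline pup. The log2 fold change was -0.64 (SE 0.23), with an exact permutation p of 0.0216 and an adjusted p of 0.38 in limma. In Low Protein and MAM it was -0.29 and -0.17. Nrg4 was above the offset in 15 of 24 pups and was not tested, and Nrg3 was not analysed here.

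The EGF-like ligands Tgfa and Hbegf, which bind the EGF receptor, were among the listed genes of lowest p. Like Mapk3, Nde1, Cacnb1 and Nrgn below, they were picked from the 117 by p, so their values are a description. Tgfa ran from 0.235 to 0.353 in Saline. It lay between 0.168 and 0.250 for Low Protein, 0.167 and 0.251 for MAM, and 0.135 and 0.285 for Poly I:C. All 6 pups of each treatment were below the Saline mean, with log2 fold changes of -0.40, -0.42 and -0.38 and adjusted p in limma of 0.67, 0.52 and 0.47. Hbegf ran from 0.576 to 0.709 in Saline and from 0.415 to 0.551 in Poly I:C, so that these groups did not overlap. Its log2 fold change in Poly I:C was -0.29 (SE 0.08, adjusted p = 0.28 in limma).

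Of the receptors beside Erbb4, Erbb2, the shared co-receptor, was at 0.390 ± 0.0394 in Saline and between 0.387 and 0.397 in the treatments on average. Its log2 fold changes were -0.02, -0.01 and 0.0072. Erbb3 was at 0.0828 ± 0.0467 in Saline, where 1 pup stood at 0.170, and its log2 fold changes were -0.23, -0.27 and -0.24 with an SE of 0.27. Egfr, the EGF receptor, was at 0.0138 ± 0.00171 in Saline, with log2 fold changes of -0.02, -0.05 and -0.19. No receptor had an unadjusted p under 0.05.

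In the branches below the receptor, Mapk3, which encodes the kinase ERK1, had small differences with little spread. It ran from 16.0 to 17.5 in Saline. It lay between 14.4 and 16.0 for Low Protein, 14.7 and 17.1 for MAM, and 14.2 and 16.0 for Poly I:C. The log2 fold change was -0.12 in Low Protein (SE 0.04, adjusted p = 0.63 in limma) and -0.13 in Poly I:C (adjusted p = 0.36). All 6 Poly I:C pups were below every Saline pup. Of the 17 genes of the PI3K-Akt list, 14 lay below 0 for Low Protein, 14 for MAM and 10 for Poly I:C. The unadjusted p was under 0.05 for 0, 2 and 0 of them.

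Of the 14 tested genes of the Disc1 list, Nde1, a partner of Disc1 at the centrosome, was higher in MAM in all 6 pups than in every Saline pup. It ran from 0.398 to 0.470 in Saline and from 0.481 to 0.581 in MAM, with a log2 fold change of 0.30 (SE 0.09, adjusted p = 0.48 in limma). Against Saline it was 0.19 for Low Protein and 0.23 for Poly I:C. Nde1 was the 1 listed gene with a higher value at an unadjusted p under 0.05 in each comparison.

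The L-type channel list held both pore-forming and auxiliary subunits. Of its 11 tested genes, Cacna1c among them, 10 lay below 0 for Low Protein, 9 for MAM and 10 for Poly I:C. Of these, 5, 2 and 0 had an unadjusted p under 0.05, beside 4.47%, 7.47% and 5.30% lower over all genes. Cacna1c was not among the 5 (unadjusted p = 0.28 in limma). Among them was Cacnb1, an auxiliary subunit, which ran from 2.93 to 3.70 in Saline and from 2.38 to 3.09 in Low Protein. Its log2 fold change was -0.22 (SE 0.08, adjusted p = 0.65 in limma). All 8 metabotropic glutamate receptor genes lay below 0 for Low Protein and for MAM, and 7 for Poly I:C, with 0, 1 and 0 at an unadjusted p under 0.05. Their median log2 fold changes were -0.22, -0.31 and -0.13, beside -0.02, -0.07 and 0.0027 over all genes tested. With the gene length correction Grm3, which is among them, was 0.042 in MAM.

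Of the 8 tested R4 family RGS genes, relatives of Rgs4, 7 lay below 0 for Low Protein, 7 for MAM and 4 for Poly I:C. Of the 7 genes that encode E proteins and their Id partners, 6, 5 and 5 lay above 0, none with an unadjusted p under 0.05, and Tcf4 was among them. The 7 BLOC-1 genes had median log2 fold changes of 0.02, -0.06 and -0.03, with no unadjusted p under 0.05. Of the other schizophrenia risk genes, Nrgn, which encodes the calmodulin-binding protein neurogranin, ran from 9.64 to 12.3 in Saline and from 5.71 to 10.3 in Poly I:C. The log2 fold change of Nrgn there was -0.41 (SE 0.11, adjusted p = 0.30 in limma), and it was -0.22 in Low Protein and -0.01 in MAM.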

How the data were processed

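Paired-end reads were trimmed at phred quality 30 and aligned to rn6 with STAR 2.4.1d by the authors, who quantified them against RefSeq transcripts in Partek and deposited TPM values offset by 0.0001. These deposited TPM values sum to 70350.1 in each pup, and 20.9% equal the offset. Log2 values were compared with limma 3.58.1 in R 4.3.3 (lmFit, eBayes with a variance trend) in a fit of all 24 pups by group. Genes above the offset in at least 18 pups were tested, with Benjamini-Hochberg adjustment over them all. Exact two-sided permutation tests of single genes used 924 splits, and correlations used 100000 permutations. Genomic spans (GRCr8, 97.6% of genes matched, 15093 by symbol and 1912 by synonym) served as lengths only. Reads per pup were estimated from steps of the low values, of which 47.1 to 56.3% were whole multiples within 0.05. A marker score is the mean log2 value of a list minus its Saline mean. A gene of the cortical list is not reported here and was left out of its list. The members and lists were chosen with earlier results of these data known. Beyond the members, the genes named are the ErbB receptors, the neuregulins, the 3 listed genes of lowest p in each comparison, and the 3 genes most like each member. The fit was checked on simulated data.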

Additional observations from a re-analysis of the deposited data

Results flagged for a closer look

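Of the 36 sets of 6 pups (9 genes in 4 groups), 4 had 1 pup far from the rest by Dixon's test, which chance gives in about 1 of 20 sets. Akt1 was at 6.46 in Poly I:C pup 1.3, below the other Poly I:C pups at 8.13 to 8.91. Cacna1c was at 0.0361 in Low Protein pup 2.3, below 0.0460 to 0.0501 in the others. Grm3 was at 0.0589 in MAM pup 2.1, above 0.0386 to 0.0440. Tcf4 was at 0.212 in Saline pup 2.1, below 0.347 to 0.429.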

How the results depend on the processing

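In 48 alternative settings no member had an adjusted p under 0.05 against Saline, and the lowest was 0.108. Of 1275 member values, 8 had an unadjusted p under 0.05 and 50 changed sign. The count of members with an unadjusted p under 0.05 in MAM rose from 0 to 1 with the gene length correction (Nrg1, 0.28) and with only the 2 groups compared (Rgs4, -0.22). In Poly I:C it ranged from 0 to 2 with 1 pup or litter left out, and was 2 without Poly I:C litter 1 (Grm3 -0.43 and Rgs4 -0.49), 1 without Poly I:C pup 1.1 (Grm3 -0.34) and 1 without pup 1.3 (Rgs4 -0.34). It was 1 without Saline pup 2.1 and Poly I:C pup 1.3 together (Rgs4 -0.33), a setting chosen after seeing the data. In Low Protein it ranged from 0 to 1 (Rgs4, without Poly I:C litter 2). Listed genes with an adjusted p under 0.05 in Poly I:C ranged from 0 to 2 (Dlg4 -0.38 and Shc3 -0.67, without Poly I:C litter 1). The causes were not tested.

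With 1 added, Tcf4 was -0.0011 in Low Protein and -0.0012 in MAM, and with median-of-ratios scaling Dtnbp1 was 0.0002 in MAM. With the length correction Nrg1 was 0.043 in Low Protein, and in MAM Erbb4 was 0.091, Dtnbp1 0.049, Cacna1c 0.076 and Grm3 0.042, and Cacna1c was 0.031 in Poly I:C. With the ganglionic eminence score Tcf4 was -0.11 in Low Protein and -0.071 in MAM. Without the pups Saline 2.1 and Poly I:C 1.3 together, Tcf4 was -0.13 and -0.12, and Akt1 was 0.072 in Poly I:C. With 1 pup or litter left out, log2 fold changes that changed sign ranged as follows. In Low Protein, Akt1 ranged from -0.031 to 0.045, Dtnbp1 from -0.041 to 0.059 and Tcf4 from -0.13 to 0.13. In MAM, Akt1 ranged from -0.018 to 0.057, Disc1 from -0.038 to 0.41 and Tcf4 from -0.12 to 0.14. In Poly I:C, Akt1 ranged from -0.086 to 0.053, Cacna1c from -0.24 to 0.085, Disc1 from -0.0058 to 0.42 and Erbb4 from -0.41 to 0.0052. There Grm3 ranged from -0.43 to 0.14, Rgs4 from -0.49 to 0.0046 and Tcf4 from -0.067 to 0.21.

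Pups with the same number in different groups come from different dams, so the numbers do not pair them by dam. Of 36 same-numbered pairs, 16 had deviations with r above 0.1. The fit with a replicate block called 0 members, and it changed the genes with an unadjusted p under 0.05 from 950 to 1204 in Low Protein, 1285 to 1611 in MAM and 1223 to 1441 with Poly I:C. With litter means as the samples these counts were 672, 679 and 807, and with the ganglionic eminence score 363 in Low Protein. Without Poly I:C litter 1 the Poly I:C count was 2390, with 253 genes at an adjusted p under 0.05 and no member among them, without Poly I:C litter 2 it was 641 and without Saline litter 2 it was 688. The MAM count was 475 without Saline litter 1, 727 without Saline pup 1.3, 818 without MAM pup 2.2, 775 and 637 without MAM litter 1 and litter 2, and 2044 without Saline pup 2.1 and Poly I:C pup 1.3. The Low Protein count was 576 without Saline litter 2. Over the 5086 genes with a mean above 1, fewer genes were tested and the counts were 420, 576 and 507. Of the genes with an unadjusted p under 0.05 in MAM, 22.3% were higher, but 65.1% with median-of-ratios scaling, 54.9% with the upper quartile and 59.6% with the length correction.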
